A study of Mus musculus with 6 samples.

Results

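The semaphorin, plexin, neuropilin, ephrin, Eph receptor, Slit, Robo, netrin and Unc5 genes were compared between the ventricles of WT and Tbx5ua KD mouse embryos. Members were taken by gene symbol alone, which gave 68 of the 23284 genes listed, and the rule itself uses no measured value. Of these, 31 are semaphorins, plexins and neuropilins, 22 are ephrins and Eph receptors, 7 are Slits and Robos and 8 are netrins and Unc5 receptors. Both groups were chimeric embryos at E9.5, labelled C57BL/6 and made by tetraploid complementation, so that the embryo proper came from the injected ES cells. The WT group had 3 embryos from wild type ES cells. The KD group had 3 embryos of genotype Tbx5ua -/-, in which tandem polyadenylation signals placed in the second exon of both alleles end the transcription of this lncRNA early, and Tbx5ua itself was not analysed here. The KD embryos of the study came from clonal ES cell lines of C57BL/6 J origin, and the labels do not say which line each sequenced embryo came from. The deposited table holds 1 value per gene for each group in FPKM, the number of fragments scaled to the length of the gene's exons and to the depth of the library, and the KD group appears there under the name KO. No value of a single embryo was at hand. Every value below is therefore the authors' group value, without SD, and no difference below was tested.

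These families were first known as guidance cues for growing axons, and they also steer endothelial cells, neural crest cells and myocardial cells in the embryo. Semaphorins are secreted or membrane-bound ligands of plexins, and most class 3 semaphorins reach plexins through the co-receptors Nrp1 and Nrp2. Ephrins are bound to the cell surface, so that ephrins and Eph receptors signal only between cells that touch, and they signal into both cells. Slits are large secreted ligands of Robo receptors, and netrins are laminin-related ligands of Dcc, Neo1 and the Unc5 receptors. In the embryonic heart, Sema3c with Plxna2, Plxnd1 and Nrp1 serves the septation of the outflow tract, Efnb2 with Ephb4 sorts arterial from venous endothelium, and Slits with Robos take part in the shaping of the heart tube, septa and valves.

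The labelled tissue was first checked against its markers. All 10 cardiomyocyte markers lay above 1 FPKM, with Myl7 at 13643 FPKM in WT and 12907 in KD, and all 10 endothelial and endocardial markers did so as well. Of 8 markers of neural crest and pharyngeal cells, 4 were listed at 0 in both groups and their summed level was 0.481 FPKM in WT and 0.281 in KD. The neural markers Sox2 and Neurog1 were listed at 0 in both groups. Markers of several other cell types differed between the groups. The summed level of 7 epicardial markers was 47.1 FPKM in WT and 96.0 in KD, and 5 of the 6 with a mean of at least 1 FPKM were past 1.5-fold, all higher in KD. The summed level of 5 platelet markers was 44.9 FPKM in WT and 99.7 in KD, most of it from Pf4, at 38.5 FPKM in WT and 86.9 in KD. Of the 4 platelet markers with a mean of at least 1 FPKM, 3 were past 1.5-fold, all higher in KD. Of the cushion mesenchyme markers, Sox9 and Twist1 were past 1.5-fold higher and Msx1 lower in KD, and of the outflow and second heart field markers Fgf8 was lower. Of the neural markers, Tubb3 was past 1.5-fold higher and Elavl4 and Stmn2 lower. Among all genes with a mean of at least 1 FPKM, 6.48% were past 1.5-fold in either direction. Twist1, Elavl4, Stmn2 and Fgf8 had a mean from 1 to 3 FPKM, where 17.3% of all genes were. No marker of liver and yolk sac or of macrophages had a mean of 1 FPKM. The sums for cardiomyocyte, endothelial and endocardial, and erythroid markers were 1.03, 1.12 and 1.01 times the WT sum in KD. The part of these cell types in the guidance genes was not tested. In such whole-tissue RNA, fewer cells of a type and less RNA per cell cannot be told apart.

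The guidance genes were expressed over a wide range and were close to WT levels in KD ventricles. A gene was compared when the mean of its WT and KD values was at least 1 FPKM, which held for 33 of the 68 members (48.5%) and for 48.8% of all genes listed. Differences are given as log2((KD + 0.1)/(WT + 0.1)), called the log2 difference below, which is 0 for equal values and positive when KD is higher. Of the 33 members, 1 was past 1.5-fold higher in KD, Slit3, and 1 was past 1.5-fold lower, Epha4. Among all 11366 genes with such a mean, 6.48% were past 1.5-fold (3.79% higher and 2.68% lower in KD), so that the share of 6.06% among the guidance genes was near that background. Of the other members, 25 had a log2 difference of less than 0.32 in size. The median log2 difference of the 33 members was 0.10, and that of all genes was 0.00. The spread of all genes widened at low levels, which the plot of difference by level shows. Past 1.5-fold were 2.56% of all genes at 10 FPKM or more, 5.76% of those from 3 to 10 FPKM and 17.3% of those from 1 to 3 FPKM. Both members past 1.5-fold had a mean from 1 to 3 FPKM, where they were 2 of 16 members (12.5%). None of the 6 members at 10 FPKM or more was past 1.5-fold, where 1.36% of all genes were higher and 1.20% lower. None of the 11 from 3 to 10 FPKM was past it either, where 3.69% of all genes were higher and 2.07% lower.

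**Figure D1:**
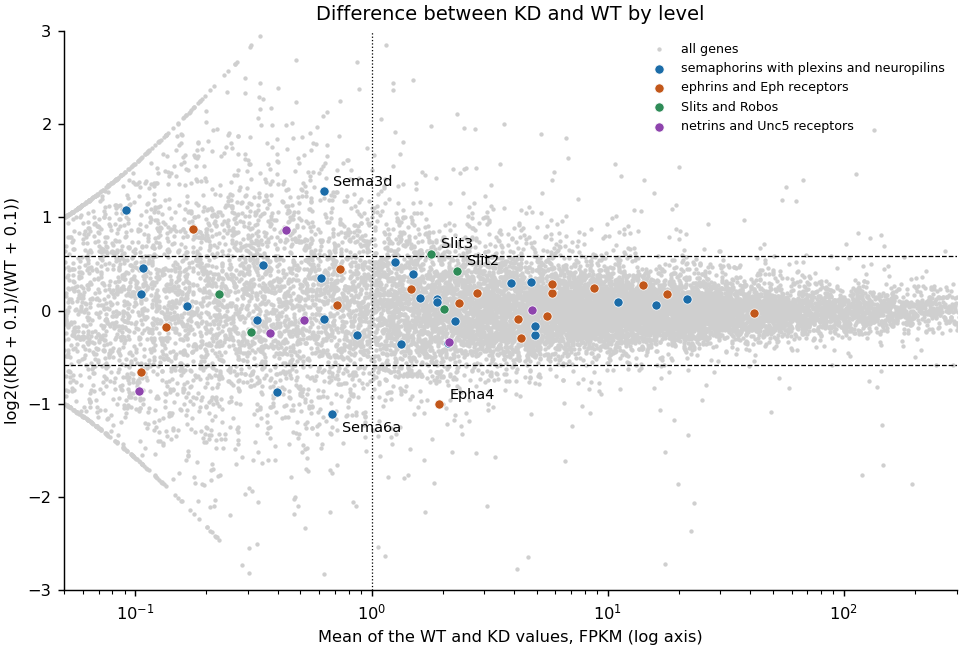
The log2 difference between KD and WT (vertical axis) is plotted against the mean of both group values in FPKM (horizontal log axis, with points beyond the axes not drawn), with grey points for all genes and coloured points for guidance genes by ligand-receptor system. Dashed lines mark 1.5-fold and the dotted line a mean of 1 FPKM, to the right of which Slit3 (0.61) and Epha4 (-1.01) alone among the guidance genes lie outside the dashed lines.

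The promoters of 4 members with the differences described below are shown because the values turn on these genes: Epha4 and Slit3, past 1.5-fold, Slit2, the other Slit above 1 FPKM, and Sema3d, with the largest log2 difference of all 68 members. They were chosen after their values were seen. Each runs 5′ to 3′ on the gene's own strand from 250 bases before to 50 bases after the start of the transcript, from RefSeq on GRCm38.p6. They lie at chr1:77515039-77515338 on the minus strand for Epha4, and on the plus strand at chr11:35121206-35121505 for Slit3, chr5:47982905-47983204 for Slit2 and chr5:12382916-12383215 for Sema3d. Capitals mark 1 of 2 motifs, each searched on both strands. The letters AGGTGT are the core of the site that T-box factors such as Tbx5 bind. The other motif, read as AGATAA, is a site of the kind that GATA factors bind.
Epha4: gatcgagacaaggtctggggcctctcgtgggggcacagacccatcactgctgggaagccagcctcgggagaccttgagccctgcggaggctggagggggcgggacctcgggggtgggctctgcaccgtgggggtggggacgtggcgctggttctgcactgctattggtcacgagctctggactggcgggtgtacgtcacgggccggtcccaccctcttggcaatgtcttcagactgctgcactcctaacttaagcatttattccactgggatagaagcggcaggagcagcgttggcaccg
Slit3: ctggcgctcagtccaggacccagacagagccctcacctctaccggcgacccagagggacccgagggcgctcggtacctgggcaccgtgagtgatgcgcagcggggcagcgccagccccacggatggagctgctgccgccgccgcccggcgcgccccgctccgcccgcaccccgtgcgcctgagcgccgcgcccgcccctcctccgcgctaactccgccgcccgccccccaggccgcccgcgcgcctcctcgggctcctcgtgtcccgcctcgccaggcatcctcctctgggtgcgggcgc
Slit2: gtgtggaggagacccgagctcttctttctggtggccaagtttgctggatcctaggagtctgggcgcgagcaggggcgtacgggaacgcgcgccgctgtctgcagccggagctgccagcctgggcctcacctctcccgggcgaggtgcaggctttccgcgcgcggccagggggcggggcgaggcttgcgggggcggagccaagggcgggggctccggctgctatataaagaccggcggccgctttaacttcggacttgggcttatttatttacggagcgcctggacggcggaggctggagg
Sema3d: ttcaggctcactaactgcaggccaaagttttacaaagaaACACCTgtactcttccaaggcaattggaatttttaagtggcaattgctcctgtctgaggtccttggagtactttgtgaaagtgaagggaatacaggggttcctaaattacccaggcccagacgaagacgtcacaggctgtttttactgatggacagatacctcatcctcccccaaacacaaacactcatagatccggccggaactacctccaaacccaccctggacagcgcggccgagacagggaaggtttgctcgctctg
Capitals appear once, in the Sema3d promoter, where the reverse complement of the T-box core starts at position -211 from the transcript start. The letters AGGTGT were in 6 of the 59 member promoters at hand (10.2%) and in 13.7% of all 32851 promoter entries of this length. AGATAA was in 2 of 59 (3.39%) and in 11.2% of all entries. The Slit promoters were rich in GC, with 78.3% for Slit3 and 68.0% for Slit2, against 64.0% for Epha4 and 49.7% for Sema3d. Over the 59 member promoters the median was 65.0%, and over all entries, which include many noncoding genes, it was 52.7%. The median number of CG dinucleotides was 21 in member promoters and 7 over all entries.

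Class 3 semaphorins, the secreted ligands, differed little in sum. The 7 genes together held 12.0 FPKM in WT and 13.2 in KD, and 3 of them had a mean of at least 1 FPKM. Sema3c, the outflow tract ligand, was the highest of them in WT, at 5.38 FPKM in WT and 4.47 in KD (log2 difference -0.26). The summed level of 5 outflow and second heart field markers beside it was 11.4 FPKM in WT and 8.03 in KD. All 3 of these with a mean of at least 1 FPKM had a negative log2 difference, of -0.75 for Fgf8, -0.47 for Rspo3 and -0.22 for Fgf10, while Tbx1 was listed at 0 in both groups, and their part in the Sema3c value was not tested. Sema3a, a ligand known for repelling axons and for patterning the sympathetic innervation of the heart, was at 4.21 FPKM in WT and 5.23 in KD (0.31). In WT Sema3c lay above Sema3a, and in KD Sema3a lay above Sema3c, in both cases by less than 1.5-fold. Sema3b, another secreted ligand of neuropilins, was at 1.02 FPKM in WT and 1.502 in KD. Its log2 difference of 0.52 was the largest below the 1.5-fold line, which lies at 0.585. The 4 others were below a mean of 1 FPKM and are given with the low members.

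Membrane-bound semaphorins of classes 4 to 7 held 13.7 FPKM in WT and 13.4 in KD over 13 genes, of which 4 had a mean of at least 1 FPKM. Sema6d, a ligand of Plxna1 with a known place in the growth of the ventricular wall and its trabeculae, was the highest, at 5.20 FPKM in WT and 4.64 in KD (log2 difference -0.16). Sema4d, a ligand of Plxnb1, was at 3.50 FPKM in WT and 4.31 in KD (0.29). Sema4b was the lowest in KD relative to WT among all semaphorins above 1 FPKM, at 1.52 FPKM in WT and 1.16 in KD (-0.36). Sema4c, a ligand of Plxnb2, was at 1.53 FPKM in WT and 1.69 in KD. Sema4b and Sema4c thus had nearly equal values in WT, and in KD Sema4c lay above Sema4b.

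The semaphorin receptors were led by Nrp1, Plxnd1 and Plxnb2, each above 10 FPKM in both groups. Nrp1, a co-receptor for class 3 semaphorins and for VEGF, was at 20.8 FPKM in WT and 22.6 in KD (log2 difference 0.12). Plxnd1, a plexin of endothelial cells, was at 15.7 FPKM in WT and 16.3 in KD (0.06), and the endothelial and endocardial marker sum beside it was 252.2 FPKM in WT and 283.4 in KD. Of these 10 markers 6 had a positive and 4 a negative log2 difference, with a median of 0.07, and Emcn (43.1 FPKM in WT and 57.4 in KD) and Egfl7 (71.4 FPKM in WT and 89.1 in KD) carry the difference of the sums. Plxnb2 was at 10.7 FPKM in WT and 11.4 in KD (0.10). These values differed by less than 1.1-fold for each of the 3 genes.

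The remaining receptors of this system were lower. Nrp2, the other co-receptor, was at 2.34 FPKM in WT and 2.16 in KD (log2 difference -0.11). Nrp2 shares its table locus with 4930487H11Rik, and Nrp1 shares its own with Mir1903, so that both values are less certain. Among class A plexins, Plxna1 was at 2.38 FPKM in WT and 1.84 in KD (-0.35). Plxna4 was at 1.80 FPKM in WT and 1.98 in KD (0.13). In WT Plxna1 was the higher of these plexins, and in KD Plxna4 was. Both values are less certain, since 10.7% of the exon bases of Plxna1 overlap Gm26811 and Plxna4 shares its table locus with B230378P21Rik. Plxna2, the outflow tract plexin, was just under the filter, at 0.955 FPKM in WT and 0.779 in KD. Plxnb1, the receptor of Sema4d, was at 1.28 FPKM in WT and 1.72 in KD (0.39), so that ligand and receptor were both higher in KD, by less than 1.5-fold each. Plxnc1, the receptor of Sema7a, was at 1.82 FPKM in WT and 1.95 in KD, while Sema7a itself was at 0.00700 FPKM in WT and 0.0371 in KD. Of the 6 plexins with a mean of at least 1 FPKM, 5 had a positive log2 difference, Plxna1 being the exception. Among all genes with such a mean, 5768 of 11366 were positive.

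**Figure D2:**
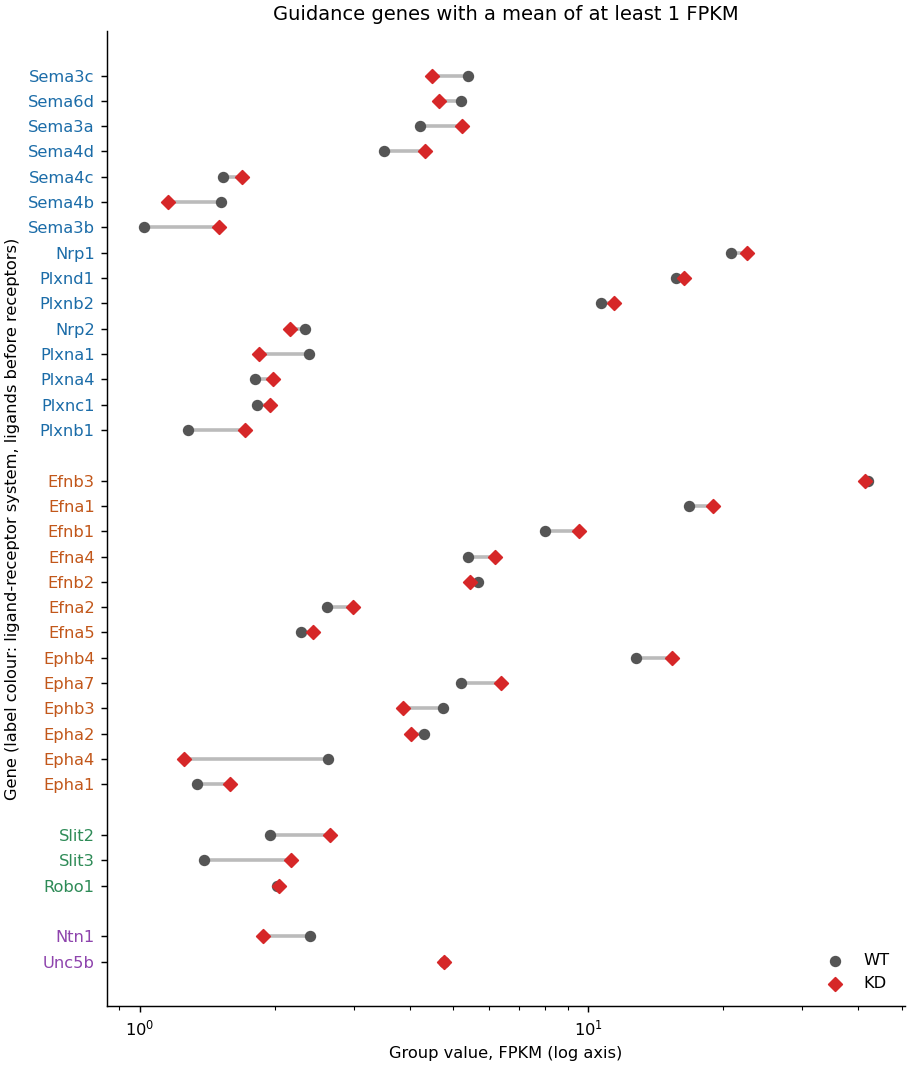
The WT (grey circles) and KD (red diamonds) group values in FPKM of the 33 guidance genes with a mean of at least 1 FPKM are plotted on a log axis, with ligands before receptors in each system. Efnb3 is the highest gene in both groups, and the longest gap between symbols is that of Epha4, at 2.62 FPKM in WT and 1.254 in KD.

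Ephrins were the most abundant ligands, and all 7 with a mean of at least 1 FPKM had a log2 difference of less than 0.32 in size. Efnb3, a transmembrane ephrin, was the highest of all 68 members, at 42.1 FPKM in WT and 41.4 in KD (log2 difference -0.02). Efnb1 was at 8.02 FPKM in WT and 9.53 in KD (0.25). Efnb2, the arterial ephrin, also found in endocardium, was at 5.68 FPKM in WT and 5.44 in KD (-0.06). The order Efnb3, Efnb1, Efnb2 was the same in both groups. Among the A ephrins, which are held in the membrane by a lipid anchor, Efna1 was at 16.7 FPKM in WT and 19.0 in KD (0.18), and Efna4 was at 5.39 FPKM in WT and 6.18 in KD (0.19). The value of Efna4 is less certain, since 10.5% of its exon bases overlap 4731419I09Rik. Efna5 was at 2.28 FPKM in WT and 2.43 in KD. Efna2 was at 2.61 FPKM in WT and 2.99 in KD, but the table gives it a locus that it shares with 45 other genes, so that its value is less certain. All 4 of these A ephrins had a positive log2 difference, from 0.08 to 0.19, where 5768 of all 11366 genes compared did. The sign, though not this range, was the same under both other scalings. The summed level of the A ephrins was 27.1 FPKM in WT and 30.7 in KD, and Efna3 was the only one of them below the filter.

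Eph receptors, the receptor tyrosine kinases that bind ephrins, held the member with the greatest log2 difference above 1 FPKM. Epha4, a receptor that binds A and B ephrins alike, lies on chromosome 1 from 77367185 to 77515088 on the minus strand. It was at 2.62 FPKM in WT and 1.254 in KD, so that the WT value was 2.09 times the KD value (log2 difference -1.01). It ranked 18 of 33 in WT and 32 of 33 in KD, and no other member moved by as many places. It was past 1.5-fold under both other scalings and with a pseudocount of 1 FPKM, where its log2 difference was -0.68. No other gene shares its locus in the table. Among all genes with a mean from 1 to 3 FPKM, 7.27% were past 1.5-fold lower in KD, and the share past 2-fold was not taken at this level.

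The other Eph receptors above 1 FPKM had log2 differences of less than 0.32 in size. Ephb4, the venous receptor of Efnb2, was the highest Eph receptor, at 12.7 FPKM in WT and 15.4 in KD (log2 difference 0.27). Epha7 was at 5.21 FPKM in WT and 6.37 in KD (0.29), and Epha2 was at 4.29 FPKM in WT and 4.03 in KD (-0.09). Ephb3 was at 4.74 FPKM in WT and 3.85 in KD (-0.29). In WT, Epha7, Ephb3 and Epha2 lay within 1.5-fold of each other, and in KD Epha7 stood above both others by over 1.5-fold. Epha1 was at 1.34 FPKM in WT and 1.59 in KD, and it shares its table locus with 2010310C07Rik, so that its value is less certain. With Epha4 lower and Epha7 higher, the summed level of the 9 A-class receptors was 13.6 FPKM in WT and 13.5 in KD. That of the 5 B-class receptors was 18.9 FPKM in WT and 20.9 in KD.

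Slit ligands were the family with the largest ratio between the groups. The 3 genes together held 3.37 FPKM in WT and 4.83 in KD, a ratio of 1.43. Slit3, on chromosome 11 from 35121456 to 35708507 on the plus strand, was at 1.39 FPKM in WT and 2.17 in KD (log2 difference 0.61). This lies just past the 1.5-fold line, and Slit3 was below it with both groups rescaled to the same sum (0.583) and with a pseudocount of 1 FPKM (0.41). Slit2, on chromosome 5 from 47983155 to 48305778 on the plus strand, was at 1.95 FPKM in WT and 2.65 in KD (0.42), short of 1.5-fold. Both genes share their table locus with a microRNA gene inside them, Mir218-2 for Slit3 and Mir218-1 for Slit2, so that both values are less certain. Slit1, known best from neurons, was at 0.0310 FPKM in WT and 0.00912 in KD. Among all genes from 1 to 3 FPKM, 10.0% were past 1.5-fold higher in KD. The epicardial and platelet marker sums, the latter mostly Pf4, were about 2 times as high in KD beside the Slit values, and their part was not tested.

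Of the Robo receptors, only Robo1 had a mean of at least 1 FPKM. Robo1, the main Robo here, was at 2.02 FPKM in WT and 2.04 in KD (log2 difference 0.02, and -0.01 with both groups rescaled to the same sum). Robo2, which acts with Robo1 in septation and valve formation, was at 0.206 FPKM in WT and 0.246 in KD. Robo4, the endothelial Robo, was at 0.342 FPKM in WT and 0.277 in KD. Robo3 was below 0.1 FPKM in both groups. The family sum was 2.57 FPKM in WT and 2.62 in KD, against the Slit sums of 3.37 and 4.83 FPKM. In WT Robo1 lay above both Slit2 and Slit3, and in KD it lay below both, in each case by less than 1.5-fold.

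**Figure D3:**
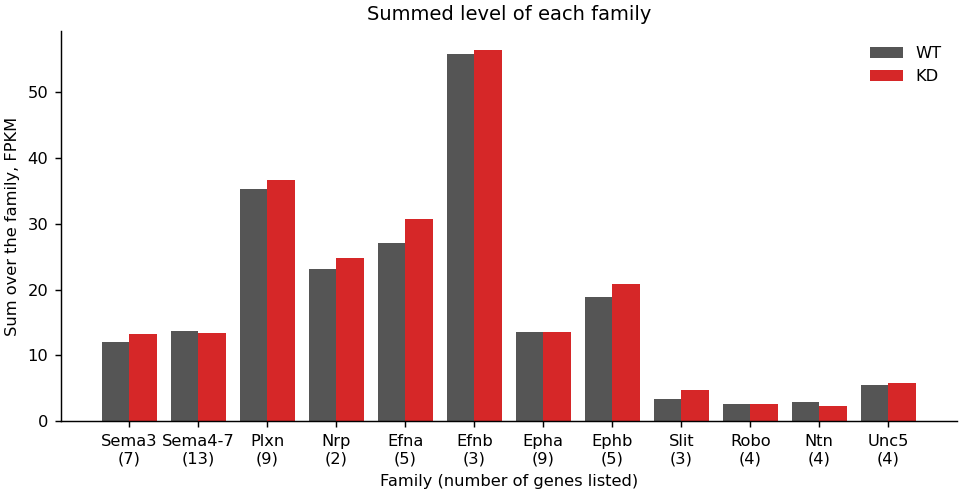
Bars give the summed FPKM of all listed genes of each family in WT (grey) and KD (red), from 0, with the number of genes in brackets. Efnb is the highest family in both groups (55.8 FPKM in WT, 56.4 FPKM in KD), and the Slit bars have the largest ratio of KD to WT (1.43).

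Netrins and their Unc5 receptors gave only 2 members with a mean of at least 1 FPKM. Ntn1, the founding netrin, was at 2.39 FPKM in WT and 1.88 in KD (log2 difference -0.33). Unc5b, an endothelial netrin receptor, was at 4.75 FPKM in WT and 4.77 in KD (0.01, and -0.02 with both groups rescaled to the same sum). Unc5c was at 0.537 FPKM in WT and 0.496 in KD. Ntn4 was listed at 0 in both groups, and Ntn3 and Ntn5 were below 0.5 FPKM in both. The netrin sum was 2.96 FPKM in WT and 2.26 in KD, and the Unc5 sum was 5.59 FPKM in WT and 5.86 in KD.

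The 35 members with a mean below 1 FPKM have less certain values. Of these, 4 were listed at 0 in both groups (Epha5, Epha6, Epha8 and Ntn4), 9 had a mean above 0 and below 0.1 FPKM, and 22 had a mean from 0.1 to 1 FPKM. Of the 22, 3 were past 1.5-fold higher and 4 lower in KD (31.8%), where 41.9% of all 3118 genes at this level were past 1.5-fold, 24.2% of all higher and 17.7% lower. The largest log2 difference upward was that of Sema3d, a secreted ligand of endothelial cells that the epicardium also makes, on chromosome 5 from 12383166 to 12588943. It was at 0.324 FPKM in WT and 0.930 in KD (1.28). The epicardial markers beside it were also higher in KD: Tcf21 was at 11.9 FPKM in WT and 25.5 in KD, and Upk3b was at 7.80 FPKM in WT and 20.7 in KD. Their part in the Sema3d value was not tested. The largest downward was that of Sema6a, a membrane-bound ligand of class A plexins, at 0.969 FPKM in WT and 0.396 in KD (-1.11). Past 2-fold at this level were 20.0% of all genes, 11.8% higher and 8.24% lower, and 2 of the 22 members, Sema3d and Sema6a.

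The others past 1.5-fold at this level were lower still. Sema3g, known from arterial endothelium, was at 0.544 FPKM in WT and 0.251 in KD. Unc5a was at 0.281 FPKM in WT and 0.591 in KD, and it shares its locus in the table with Hk3. Epha3, which serves the fusion of the atrioventricular cushions, was at 0.0941 FPKM in WT and 0.256 in KD. The remaining ones, Ephb1 and Ntn5, were below 0.2 FPKM in both groups, and 23.4% of the exon bases of Ntn5 overlap Sec1. Sema3e, the ligand that binds Plxnd1 without a neuropilin, was below a mean of 0.1 FPKM, at 0.0230 FPKM in WT and 0.160 in KD, while Plxnd1 was above 15 FPKM in both. Sema3f was at 0.523 FPKM in WT and 0.696 in KD, Plxna3 was at 0.650 FPKM in WT and 0.603 in KD, and Ephb2 was at 0.609 FPKM in WT and 0.866 in KD. These 3 were within 1.5-fold.

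Ligands and receptors gave similar sums in both groups. The 35 ligand genes held 115.0 FPKM in WT and 120.8 in KD, a ratio of 1.05, and the 33 receptor genes held 99.0 FPKM in WT and 104.3 in KD, a ratio also of 1.05. The sum over all genes of the table had a ratio of 1.02. Of the ligands with a mean of at least 1 FPKM, 11 of 17 had a positive log2 difference, and of the receptors 11 of 16 did. Among all genes with such a mean, 5768 of 11366 were positive. By system, the median log2 difference was 0.10 over 15 semaphorins, plexins and neuropilins, 0.18 over 13 ephrins and Eph receptors, 0.42 over 3 Slits and Robos and -0.16 over the netrin and the Unc5 receptor.

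Genes that act beside these families were taken from a list of pathway partners. Of 19 co-receptors and receptor partners listed, 10 had a mean of at least 1 FPKM, of which 2 were past 1.5-fold (20.0%, against 6.48% of all genes), both higher in KD (3.79% of all genes). Flrt2, a membrane protein that binds Unc5 receptors, was at 2.24 FPKM in WT and 4.03 in KD, and Sdc4, a heparan sulfate proteoglycan, was at 9.32 FPKM in WT and 14.3 in KD. The netrin receptor Neo1 was at 3.70 FPKM in WT and 3.46 in KD, while Dcc was below 0.1 FPKM in both groups. Of 39 intracellular transducers, 36 had such a mean, with 3 past 1.5-fold higher (Rnd1, Vav3 and Dpysl5) and 2 lower (Mical3 and Farp2), 13.9% in all against 6.48% of all genes. Vav3, Dpysl5 and Farp2 had a mean from 1 to 3 FPKM, where 17.3% of all genes were past 1.5-fold. Rnd1, a small GTPase that binds plexins, was at 1.98 FPKM in WT and 4.08 in KD (log2 difference 1.01). Mical3, of the MICAL family of actin-oxidizing enzymes that act below plexins, was at 6.46 FPKM in WT and 3.89 in KD (-0.72). Farp2, a guanine nucleotide exchange factor bound by Plxna1, was at 1.38 FPKM in WT and 0.859 in KD (-0.63). The median log2 difference was 0.15 for the co-receptors and 0.06 for the transducers. The plot of marker and partner lists shows these beside the guidance genes.

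**Figure D4:**
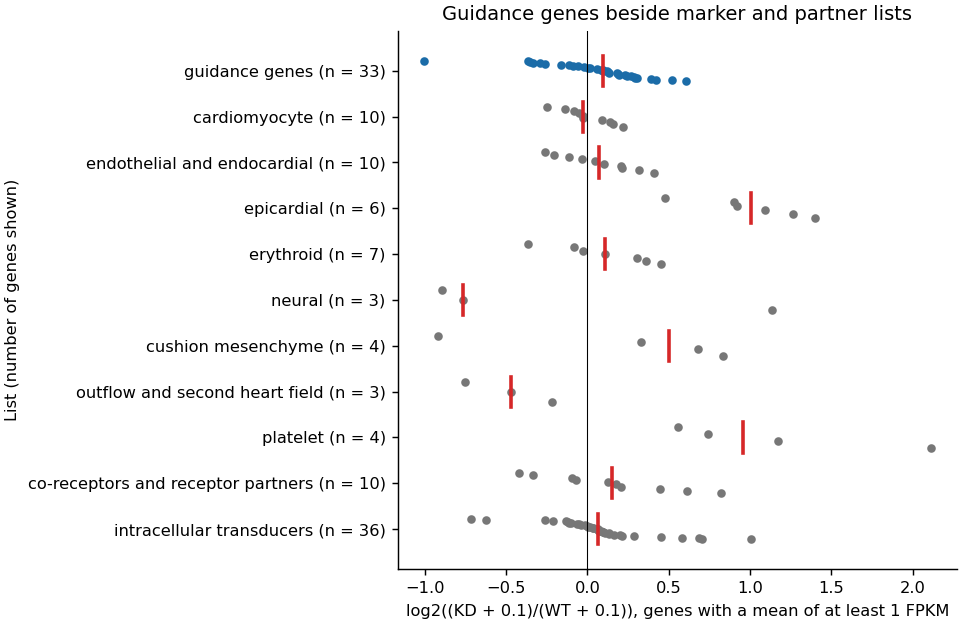
Each point is the log2 difference between KD and WT of 1 gene with a mean of at least 1 FPKM, for the guidance genes (blue) and for lists of cell type markers and pathway partners (grey), and red bars mark the median of each list. The guidance genes lie around a median of 0.10, while the epicardial and platelet markers lie above 0 throughout.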

How the data were processed

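RNA was taken from ventricles of 3 WT and 3 KD embryos, and libraries were made from 10 ng of total RNA by Smart-Seq2, with 12 cycles of preamplification and 9 of enrichment PCR. The read layout, tool versions and gene annotation are not given in the sources used here. The submitters' processing notes name TopHat, Bowtie2, Cuffdiff and mm10. The authors deposited 1 Cuffdiff table with an FPKM value per gene and group. It also holds the authors' own fold changes, test statistics, p-values and q-values, which were not used. With 0 columns of single embryos, no SD, test or fit over embryos could be made here. A description of the group values replaced the planned count or limma model. The depth is unknown. Of the 68 members 25 are marked as having too few reads for the authors' test, and 0 of these have a mean of at least 1 FPKM. Of the 33 members compared, 24 have a locus of their own and under 10% of their exon bases overlapped. The values of the others are less certain.

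Differences are log2(FPKM + 0.1) of KD less that of WT, and a gene was past the threshold at 1.5-fold with a mean of at least 1 FPKM. Starts are those of the table plus 1: 20 members then match a GENCODE M21 gene start and 0 do so without it. Members were named in the text if past 1.5-fold, highest in their family or known from the heart or its vessels. All other members were named after their values were seen. From the partner lists, only the genes past 1.5-fold were named, with Neo1 and Dcc beside them. The families and the marker and partner lists were chosen with earlier results of these data known, which may have shaped them, although members within the families were then taken by symbol alone. The alternatives are given in the closing section. Python 3.11.15, NumPy 2.4.6, pandas 2.3.3 and Matplotlib 3.10.9 were used, and the scripts were tested on simulated data.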

Additional observations from a re-analysis of the deposited data

How the results depend on the processing

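No paired analysis was possible because the values are given per group and not per embryo, and for the same reason fits without each replicate were not run. The depth, which is unknown, limits what the members below 1 FPKM can show. Of the 2 members past 1.5-fold, Epha4 remained so in each setting that kept it, while Slit3 lay near the line. The count of members higher in KD, 1 as reported, was 0 with a pseudocount of 1 FPKM, 0 with both groups rescaled to the same sum, 0 with a mean of at least 5 FPKM and 0 at 2-fold. In these settings 2.05%, 3.75%, 1.77% and 1.15% of all genes were higher. It was 6 with no filter and 4 past a log2 difference of 0.32. The count lower in KD, also 1, stayed 1 at 2-fold, where 0.853% of all genes with a mean of at least 1 FPKM were lower. It was 0 with a mean of at least 5 FPKM, where neither Slit3 nor Epha4 passes and 1.21% of all genes were lower. It was 5 with no filter and 4 past a log2 difference of 0.32. Of all genes, 9.39% were then higher and 6.80% lower with no filter, and 11.3% higher and 8.82% lower past a log2 difference of 0.32.

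The group values have no spread, so any change at the second decimal was counted. With a pseudocount of 1 FPKM the median log2 difference was 0.0855 for all members, 0.0855 for semaphorins, plexins and neuropilins, 0.14 for ephrins and Eph receptors, 0.31 for Slits and Robos and -0.12 for netrins and Unc5 receptors. With no pseudocount it was 0.44 for Slits and Robos and -0.17 for netrins and Unc5 receptors. With no filter these medians were, in the same order, 0.0892, 0.12, 0.0839, 0.18 and -0.24. With a mean of at least 5 FPKM they were 0.15 for all members, 0.0945 for semaphorins, plexins and neuropilins and 0.19 for ephrins and Eph receptors, and no gene was left in the other systems. Less the median of all genes they were 0.0917 for all members, 0.0917 for semaphorins, plexins and neuropilins and -0.17 for netrins and Unc5 receptors. Rescaled to the same sum they were 0.0672, 0.0672, 0.15, 0.40 and -0.19. Of the single members above 1 FPKM, Robo1 and Unc5b, both near 0, took the other sign when rescaled.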

Other observations

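Several guidance genes lie beside a relative on the same chromosome. Sema3d, Sema3a and Sema3e follow each other on chromosome 5 from 12383166 to 14256689, with gaps of 808 kb and 422 kb, and their log2 differences were 1.28, 0.31 and 1.08. Sema3a was the only one of them with a mean of at least 1 FPKM. Sema3c, further along the chromosome from 17574816 to 17730267, had a log2 difference of -0.26.

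Efna1, Efna3 and Efna4 lie on chromosome 3 with gaps of 34.0 kb and 10.5 kb. Efna1 and Efna4 were at 16.7 and 5.39 FPKM in WT, and Efna3 between them was at 0.149 FPKM. The values of Efna3 and Efna4 are less certain, since 14.1% and 10.5% of their exon bases overlap another gene. Sema3b and Sema3f, 72.3 kb apart on chromosome 9, had log2 differences of 0.52 and 0.35. Robo4 and Robo3, 2.02 kb apart on chromosome 9, were at 0.342 and 0.00822 FPKM in WT, and their log2 differences were -0.23 and 0.48. Sema3f, Robo4 and Robo3 had a mean below 1 FPKM, so that their values are less certain.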
